A study of Mus musculus with 25 samples.

Results

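The identity genes that mark the main classes of cortical neuron were followed through RNA-seq libraries of sorted neurons: *Slc17a7* and *Camk2a*, which mark excitatory cells, and *Gad2* and *Vip*, which mark inhibitory cells. They are 4 of the 9931 genes with a symbol in the table, and their rows were taken by symbol, although the genes were chosen with earlier results of these data known. *Slc17a7* encodes the vesicular glutamate transporter that loads synaptic vesicles in most cortical projection neurons. *Camk2a* encodes the alpha subunit of calcium/calmodulin-dependent kinase II, an abundant postsynaptic kinase of forebrain excitatory neurons. *Gad2* encodes one of the enzymes that make GABA from glutamate, and *Vip* encodes vasoactive intestinal peptide, which is released by a class of interneurons that mainly inhibits other interneurons.

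The libraries came from C57BL/6 mice that all carried REST flx/flx alleles and a TdTomato reporter behind a floxed STOP cassette. AAV-Syn-GFP (WT) or AAV-Syn-Cre (REST cKO) was injected into the sensorimotor cortex, and the mice received a sham operation or a complete crush of the spinal cord at T10 (SCI) with recovery for 1, 3 or 7 days. Sham, day 1, day 3 and day 7 were represented by 4, 3, 3 and 3 libraries in WT and by 3, 2, 4 and 3 libraries in REST cKO. The synapsin promoter of the virus acts in excitatory and inhibitory neurons alike, and WT cells were sorted by GFP whereas REST cKO cells were sorted by tdTomato, so the virus, the fluorophore and the genotype cannot be told apart.

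The cortex balances glutamate-releasing projection neurons, among them the corticospinal neurons that are cut by the injury, against GABA-releasing interneurons. REST is a transcriptional repressor that keeps many neuronal genes silent outside neurons by binding a motif called RE1. Because each class carries its own transporter, enzyme or peptide, the 4 transcripts are commonly read as a guide to which neurons a sample holds. In bulk samples, fewer cells of a type and less RNA per cell cannot be told apart.

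The values are log2 normalized counts of 3′ end tags, so that a difference of 1 is a doubling. The depth of the single libraries is unknown, because no totals per library accompany these values. *Rest* had a mean of 0.56 ± 1.46 (SD, n = 13) in WT and -0.79 ± 0.74 (SD, n = 12) in REST cKO, and the genotypes overlapped in sham and at day 1 but not at day 3 (WT from 0.56, REST cKO up to -0.042) or day 7 (WT from 0.26, REST cKO up to -0.33). *Rest* tags are read at the transcript's end, which need not lie in the floxed part. The share of genes with a value under -2 was 2.77% to 12.3% in 23 libraries, 16.98% in WT day 7 replicate 7 and 29.5% in WT day 3 replicate 5. The libraries are labelled cortical motor neurons, and 9 of 15 listed corticospinal genes were measured, while *Fezf2*, *Crym* and *Ldb2* were not analyzed here. The summed level of 12 microglial genes was above that of 18 pan-neuronal genes in 25 of 25 libraries, with log2 sums of 6.41 to 7.16 for microglial and 4.55 to 6.46 for pan-neuronal genes.

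The promoters are shown here because REST, the protein removed in REST cKO, acts through short DNA motifs. RefSeq promoters of GRCm38.p6 run from 250 bases before the transcript start to 50 bases after it, and all 3 below lie on the plus strand. *Slc17a7* is at chr7:45163671-45163970, *Gad2* at chr2:22622077-22622376 and *Vip* at chr10:5638968-5639267. Capitals mark the run from AGCACC to GGACAG (both parts of the RE1 core and the 2 bases between them) in *Gad2*, and GGACAG alone in *Slc17a7*. In *Vip* they mark TATAAA at 3 places, TGACG at 1 place and GGACAG at 1 place. *Camk2a* is named only.

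Slc17a7: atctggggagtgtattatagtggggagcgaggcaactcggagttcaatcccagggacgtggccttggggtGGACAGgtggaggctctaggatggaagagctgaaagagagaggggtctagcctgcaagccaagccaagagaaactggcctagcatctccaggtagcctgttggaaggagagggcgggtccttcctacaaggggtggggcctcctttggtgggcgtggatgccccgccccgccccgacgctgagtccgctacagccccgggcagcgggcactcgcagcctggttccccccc
Gad2: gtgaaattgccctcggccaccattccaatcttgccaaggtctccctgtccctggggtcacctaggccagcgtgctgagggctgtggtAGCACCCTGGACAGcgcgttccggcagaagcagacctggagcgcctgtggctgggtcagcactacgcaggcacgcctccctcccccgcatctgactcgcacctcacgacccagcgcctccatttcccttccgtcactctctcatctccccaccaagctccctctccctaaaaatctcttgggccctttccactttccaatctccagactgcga
Vip: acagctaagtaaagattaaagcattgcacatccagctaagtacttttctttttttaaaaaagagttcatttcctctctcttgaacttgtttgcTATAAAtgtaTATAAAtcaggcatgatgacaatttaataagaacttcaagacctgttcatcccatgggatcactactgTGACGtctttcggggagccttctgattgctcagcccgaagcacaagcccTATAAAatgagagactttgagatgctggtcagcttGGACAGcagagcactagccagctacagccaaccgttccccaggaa

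Both parts of the RE1 core, AGCACC followed after 2 bases by GGACAG, were present on the plus strand of the *Gad2* promoter at position -163 from the start. On either strand, this arrangement was held by 17 of 32851 promoters (0.0517%), and it was searched for after the sequence had been seen. GGACAG alone was held by 22.2% of promoters, including those of *Slc17a7* (position -180) and *Vip*. The *Vip* promoter held TATAAA at positions -157, -147 and -30, a word found in 13.6% of promoters, and TGACG, the first letters of the cAMP response element, at position -79. TGACG was held by 20.8% of promoters, among them *Gad2* on the minus strand. All motifs were searched on both strands, and TGACG and GGACAG overlap the longer words. The full TGACGTCA (1.79% of promoters) and TTCAGCACC (0.371%) were in none of the 3. CCAAT (37.4%) and CAGATG (17.2%) were found in *Gad2* only among these 3. The GC content was 63.7% in *Slc17a7*, 61.3% in *Gad2* and 41.7% in *Vip*, beside a median of 52.7% over all promoters. A match is a description of the letters and not a bound site.

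*Slc17a7* was present in every library at a narrow range of levels. In WT it was 1.75, 1.75, 1.93 and 2.13 in sham, 1.78, 1.79 and 2.10 at day 1, 2.01, 2.43 and 2.73 at day 3, and 0.51, 1.63 and 1.82 at day 7. In REST cKO it was 1.80, 2.60 and 2.88 in sham, 1.75 and 2.29 at day 1, 1.27, 1.80, 1.90 and 2.07 at day 3, and 1.60, 1.93 and 2.57 at day 7. WT day 7 replicate 12, at 0.51, lay lowest of all 25 libraries, and the WT and REST cKO ranges overlapped in all 4 conditions. The group means ran from 2.43 ± 0.56 (SD, n = 3) in REST cKO sham to 1.32 ± 0.71 (SD, n = 3) in WT day 7. Of the gaps between neighbours in that order, only that between REST cKO day 3 (1.76 ± 0.35, SD, n = 4) and WT day 7, at 0.44, exceeded the pooled SD within groups of 0.42.

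*Camk2a* was likewise measured in every library and varied least of the 4 genes. In WT it was 1.09, 1.35, 1.39 and 1.40 in sham, 1.64, 1.76 and 2.26 at day 1, 1.49, 2.12 and 2.37 at day 3, and 0.81, 1.30 and 1.32 at day 7. In REST cKO it was 1.41, 1.72 and 2.12 in sham, 1.67 and 2.19 at day 1, 1.49, 1.70, 1.86 and 1.93 at day 3, and 0.83, 1.53 and 1.81 at day 7. All WT sham libraries lay below all REST cKO sham libraries and below all WT libraries of days 1 and 3, the closest pair being 1.40 in WT sham and 1.41 in REST cKO sham. The group means ran from 2.00 ± 0.45 (SD, n = 3) in WT day 3 to 1.14 ± 0.29 (SD, n = 3) in WT day 7. A single gap between neighbours in that order, 0.36 between REST cKO day 3 and REST cKO day 7, exceeded the pooled SD within groups of 0.33.

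*Gad2* varied more between libraries of a group than between groups. In WT it was -0.83, 0.02, 0.71 and 1.22 in sham, 0.20, 0.27 and 0.41 at day 1, -2.20, -1.88 and 1.96 at day 3, and -0.93, -0.47 and -0.04 at day 7. In REST cKO it was -0.35, 0.92 and 2.36 in sham, 0.09 and 0.98 at day 1, -0.83, -0.62, -0.21 and 0.82 at day 3, and -1.17, 1.68 and 2.62 at day 7. The 3 WT libraries of day 3 held both the lowest values of all 25 and one of the highest, and every pair of genotypes overlapped within a condition. The group means ran from 1.04 ± 1.97 (SD, n = 3) in REST cKO day 7 to -0.71 ± 2.31 (SD, n = 3) in WT day 3. No gap between neighbours in that order exceeded the pooled SD within groups of 1.26.

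*Vip* spanned the widest range of the 4 genes, from -2.90 to 3.31. In WT it was -0.63, -0.41, -0.37 and 0.04 in sham, 0.40, 0.66 and 1.72 at day 1, -2.90, -0.50 and 2.17 at day 3, and -2.63, -1.11 and -0.48 at day 7. In REST cKO it was 0.03, 1.71 and 3.31 in sham, -0.03 and 0.39 at day 1, -0.44, 0.46, 0.91 and 1.42 at day 3, and -2.71, -2.69 and -0.47 at day 7. All REST cKO libraries of day 7 lay below all REST cKO sham libraries, all WT sham libraries lay below all WT libraries of day 1, and both REST cKO libraries of day 1 lay below all WT libraries of day 1, the closest pair being 0.39 and 0.40. The group means ran from 1.68 ± 1.64 (SD, n = 3) in REST cKO sham to -1.96 ± 1.29 (SD, n = 3) in REST cKO day 7. No gap between neighbours in that order exceeded the pooled SD within groups of 1.26, the largest being 1.00 between WT day 3 and WT day 7.

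**Figure D1:**
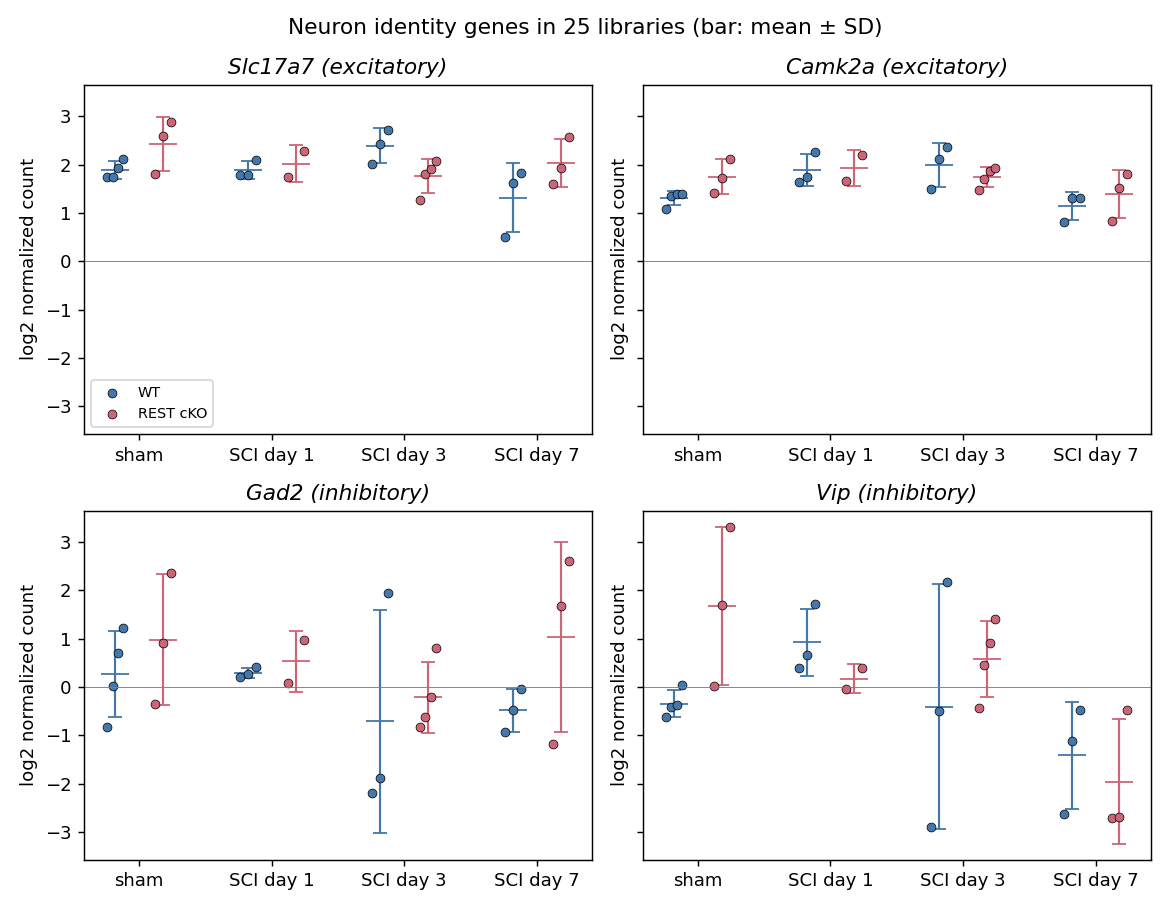
Log2 normalized counts (vertical axis) of the 4 genes in each library (points), by condition (horizontal axis) and genotype (blue WT, red REST cKO), with the mean and SD of each group. *Slc17a7* and *Camk2a* stay between 0.51 and 2.88, whereas *Gad2* and *Vip* spread from -2.90 to 3.31, most widely in WT at day 3.

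The first question was whether loss of REST went with a different mix of neurons. REST cKO was compared with WT within each condition, and the difference was fitted for all 9931 genes with limma over the 25 libraries. None of the 4 genes passed an adjusted p of 0.1 in sham (0.0302% of all genes did), at day 1 (0%), at day 3 (0%), at day 7 (0%) or on average over the 4 conditions (0.0101%). Averaged over the conditions, REST cKO minus WT was 0.31 ± 0.20 (SE, 95% CI -0.10 to 0.72) for *Slc17a7*. The same average was 0.19 ± 0.22 (SE, 95% CI -0.26 to 0.63) for *Camk2a*. It was 0.75 ± 0.57 (SE, 95% CI -0.43 to 1.92) for *Gad2* and 0.52 ± 0.59 (SE, 95% CI -0.69 to 1.72) for *Vip*. All 4 estimates were positive and all 4 intervals held 0, with adjusted p-values by limma of 0.707, 0.882, 0.787 and 0.878. After each library was centered on its pan-neuronal genes, the averages were -0.080 for *Slc17a7*, -0.20 for *Camk2a*, 0.36 for *Gad2* and 0.13 for *Vip*. The intervals thus allow average differences of up to 1.92 for *Gad2* and 1.72 for *Vip*, and of up to 0.72 and 0.63 for the excitatory genes.

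In sham, where no injury had been made, the 4 fitted differences were all positive, although centering on pan-neuronal genes turned all but that of *Vip* negative. *Slc17a7* differed by 0.97 ± 0.42 (SE), with a limma p of 0.030 and an adjusted p of 0.669. *Vip* differed by 2.33 ± 1.23 (SE), with a limma p of 0.070 and an adjusted p of 0.747. *Camk2a* differed by 0.67 ± 0.45 (SE) and *Gad2* by 0.73 ± 1.197 (SE), the latter being 0.11 without REST cKO replicate 23 and 1.12 without REST cKO replicate 18. At an unadjusted p under 0.05 this was 1 of 4 genes, beside 6.91% of all genes, and 1 of 4 (*Camk2a*) had no overlap between the genotypes, beside 7.86% of all genes. The *Slc17a7* difference was 0.54 without the sequencing components in the model and -0.27 after centering, which also gave -0.57 for *Camk2a*, -0.51 for *Gad2* and 1.09 for *Vip*. The deposited values of the 4 genes were already uncorrelated with these components, so a fit without them does not use unadjusted values. All 3 REST cKO sham mice were male, whereas WT sham held 2 males and 2 females.

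After injury the sign of the genotype difference varied between genes and days. At day 1, where REST cKO has 2 libraries, the differences were 0.55 ± 0.49 for *Slc17a7*, 0.22 ± 0.53 for *Camk2a*, 0.14 ± 1.40 for *Gad2* and -0.50 ± 1.44 (SE) for *Vip*. None had an unadjusted p under 0.05 (3.81% of all genes did), and 1 of 4 (*Vip*, lower in REST cKO) had no overlap, as did 18.6% of all genes at this group size. With single libraries left out, the day 1 differences ranged from 0.45 to 0.84 (*Slc17a7*), -0.19 to 0.76 (*Camk2a*), -0.30 to 0.48 (*Gad2*) and -0.91 to 0.26 (*Vip*). At day 3, *Slc17a7* was -0.94 ± 0.39 (SE) in REST cKO relative to WT, with a limma p of 0.024 and an adjusted p of 0.770. *Camk2a* at day 3 was -0.41 ± 0.42, *Gad2* 0.49 ± 1.11 and *Vip* 0.78 ± 1.15 (SE). An unadjusted p under 0.05 was thus reached by 1 of 4 genes at day 3, beside 6.37% of all genes, and 0 of 4 were free of overlap, beside 7.59%. The day 3 differences of *Gad2* and *Vip* changed with single WT libraries. They were -0.15 and -0.28 without replicate 5, -0.34 and 0.60 without replicate 16, and 1.73 and 2.00 without replicate 22. That of *Camk2a* was -0.20 without replicate 5 and -0.62 without replicate 22.

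At day 7, *Gad2* had its largest genotype difference, 1.63 ± 1.11 (SE), with a limma p of 0.155 and an adjusted p of 0.662. *Slc17a7* differed by 0.66 ± 0.39, *Camk2a* by 0.25 ± 0.42 and *Vip* by -0.54 ± 1.15 (SE). Unadjusted p was under 0.05 for 0 of 4 genes, beside 9.95% of all genes, and 0 of 4 were free of overlap, beside 12.4%. The *Gad2* difference was 0.85 without REST cKO replicate 2 and 2.68 without REST cKO replicate 26, and that of *Slc17a7* was 0.37 without WT replicate 12. The *Camk2a* difference was 0.079 without REST cKO replicate 2 and 0.57 without REST cKO replicate 13, and that of *Vip* was -0.053 without WT replicate 7 and -1.23 without REST cKO replicate 26. Centering on pan-neuronal genes turned the day 7 differences of *Slc17a7* and *Camk2a* to -0.12 and -0.52. All WT mice of day 7 were female and all REST cKO mice of day 7 were male, so sex and genotype cannot be told apart at that day. For the average over conditions, unadjusted p was under 0.05 for 0 of 4 genes, beside 8.53% of all genes.

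The libraries fall into 3 batches by the labels. Within batches 1 and 2, the mean difference of REST cKO from WT over the conditions that held both was 0.048 and 0.31 for *Slc17a7*, and 0.17 and 0.015 for *Camk2a*. For *Gad2* it was 1.74 and 1.15, and for *Vip* 1.498 and 0.96. Batch 3 held 1 WT and 4 REST cKO libraries and both genotypes at day 3 only, so its value is REST cKO replicate 27 minus WT replicate 22. It was 0.062 and 0.21 for the excitatory genes, -2.57 for *Gad2* and -1.72 for *Vip*. The inhibitory genes therefore had the opposite sign in batch 3, between 2 single libraries.

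The next comparison was SCI with sham within each genotype. No member passed an adjusted p of 0.1 in WT at day 1 (0% of all genes), day 3 (0.0101%) or day 7 (0%), or in REST cKO at day 1 (0%), day 3 (0.0201%) or day 7 (0%). The 3 days of a genotype share its sham libraries, so their values are not independent of each other.

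In WT, *Slc17a7* and *Camk2a* had their highest group means at day 3. The mean level of the other listed excitatory genes was highest at day 1, at 1.201 ± 0.28 (SD, n = 3), beside 0.48 ± 0.07 (SD, n = 4) in sham and 0.57 ± 0.46 (SD, n = 3) at day 3. *Slc17a7* at day 3 minus sham was 0.88 ± 0.41 (SE), with a limma p of 0.041 and an adjusted p of 0.699. *Camk2a* was 0.88 ± 0.44 (SE), with a limma p of 0.054 and an adjusted p of 0.713. *Slc17a7* was -0.06 ± 0.38 (SE) at day 1 and -0.38 ± 0.37 (SE) at day 7, while *Camk2a* was 0.60 ± 0.41 (SE) at day 1 and -0.07 ± 0.40 (SE) at day 7. *Gad2* in WT was 0.18 ± 1.09, -0.97 ± 1.16 and -0.77 ± 1.05 (SE), and *Vip* was 1.29 ± 1.12, 0.20 ± 1.19 and -0.94 ± 1.08 (SE) at days 1, 3 and 7. Counts at an unadjusted p under 0.05 were 0, 1 and 0 of 4 at days 1, 3 and 7, beside 6.43%, 6.9% and 6.89% of all genes. Counts without overlap were 2 (*Camk2a* and *Vip*), 1 (*Camk2a*) and 0 of 4, beside 7.02%, 6.54% and 6.87% of all genes. The day 3 value of *Slc17a7* was 0.50 without the sequencing components, and centering on pan-neuronal genes gave 0.19 for both excitatory genes.

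In REST cKO, *Vip* had the largest fitted difference of any member, -3.81 ± 1.22 (SE, 95% CI -6.32 to -1.30) at day 7 relative to sham. Its limma p was 0.0044 and its adjusted p was 0.814. It stayed between -4.55 and -3.01 when each library was left out in turn. The REST cKO values of *Vip* at day 7 were -2.71, -2.69 and -0.47, and *Vip* was under -2 in 4 of the 25 libraries. *Slc17a7* in REST cKO was -1.03 ± 0.40 (SE) at day 3, with a limma p of 0.017 and an adjusted p of 0.947, and it was -0.67 without the sequencing components and -0.15 after centering on pan-neuronal genes. It was -0.48 ± 0.43 (SE) at day 1 and -0.69 ± 0.42 (SE) at day 7. *Camk2a* in REST cKO was 0.15 ± 0.46, -0.19 ± 0.43 and -0.49 ± 0.45 (SE), *Gad2* was -0.41 ± 1.22, -1.21 ± 1.15 and 0.13 ± 1.19 (SE), and *Vip* was -1.54 ± 1.25 (SE) at day 1 and -1.35 ± 1.18 (SE) at day 3. Unadjusted p was under 0.05 for 0, 1 and 1 of 4 genes at days 1, 3 and 7, beside 5.29%, 4.65% and 5.67% of all genes. Counts without overlap were 0, 0 and 1 (*Vip*) of 4, beside 20.4%, 6.69% and 10.7% of all genes. *Adcyap1r1*, a receptor of the related peptide PACAP and the only other listed gene of the VIP system that was measured, was -0.52 ± 1.31 (SE) at day 7.

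The interaction asked whether the response to injury differed between the genotypes. It passed an adjusted p of 0.1 for 0 of 4 genes at day 1 (0% of all genes), day 3 (0%) and day 7 (0.0201%). The clearest value was *Slc17a7* at day 3, -1.91 ± 0.63 (SE, 95% CI -3.21 to -0.60), with a limma p of 0.0059 and an adjusted p of 0.912. It combines day 3 minus sham differences of 0.88 in WT and -1.03 in REST cKO, whose sham mean of 2.43 was the highest group mean. The interaction was -1.17 without the sequencing components and -0.34 after centering on pan-neuronal genes. *Camk2a* at day 3 was -1.08 ± 0.68 (SE). *Vip* was -2.83 ± 1.65, -1.55 ± 1.86 and -2.87 ± 1.72 (SE) at days 1, 3 and 7, and *Gad2* was -0.59 ± 1.60, -0.23 ± 1.81 and 0.91 ± 1.67 (SE). Counts at an unadjusted p under 0.05 were 0, 1 and 0 of 4, beside 5.77%, 5.15% and 6.35% of all genes. Over all 14 comparisons, 6 of 56 member tests had an unadjusted p under 0.05, all on *Slc17a7* or *Vip*, and the smallest adjusted p was 0.599. The share of all genes at an unadjusted p under 0.05 was 3.81% to 9.95% in the single comparisons.

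**Figure D2:**
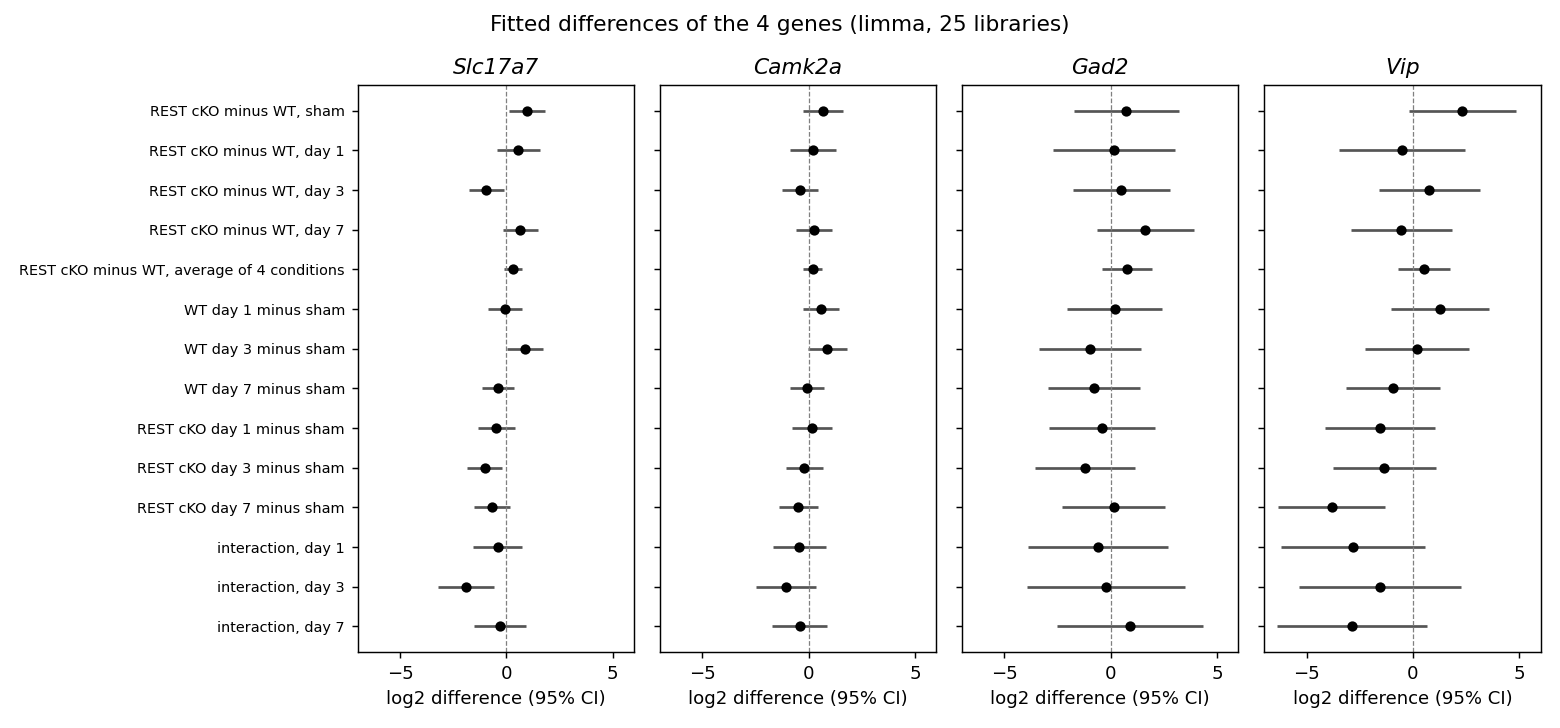
Fitted log2 differences (points, horizontal axis) with 95% confidence intervals (lines) for the 4 genes in 14 comparisons (vertical axis), from limma over 25 libraries. Intervals of *Gad2* and *Vip* are wider than those of *Slc17a7* and *Camk2a* throughout, and *Vip* in REST cKO at day 7 minus sham, at -3.81, lies farthest from 0.

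The excitatory and inhibitory genes differed in how well they were measured. The pooled SD between libraries of a group was 0.42 for *Slc17a7* and 0.33 for *Camk2a*, beside 1.26 for both *Gad2* and *Vip* and a median of 1.12 over all genes. Only 8.47% of genes had a smaller SD than *Slc17a7* and 4.69% a smaller SD than *Camk2a*, whereas 60.5% and 61.0% had a smaller SD than *Gad2* and *Vip*. Spread depends on level in this table. Among genes whose mean level lay within 0.25, a smaller SD was held by 19.5% for *Slc17a7* (of 1060 genes), 2.65% for *Camk2a* (of 1322), 40.2% for *Gad2* (of 1496) and 30.2% for *Vip* (of 1466). A value under -2 occurred in no library for *Slc17a7* and *Camk2a*, in 1 library for *Gad2* and in 4 libraries for *Vip*. Other inhibitory genes were as variable, with pooled SDs of 1.26 for *Gad1*, which encodes the other GABA-making enzyme, 1.71 for *Slc32a1*, the vesicular GABA transporter, and 1.49 for *Npy*.

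**Figure D3:**
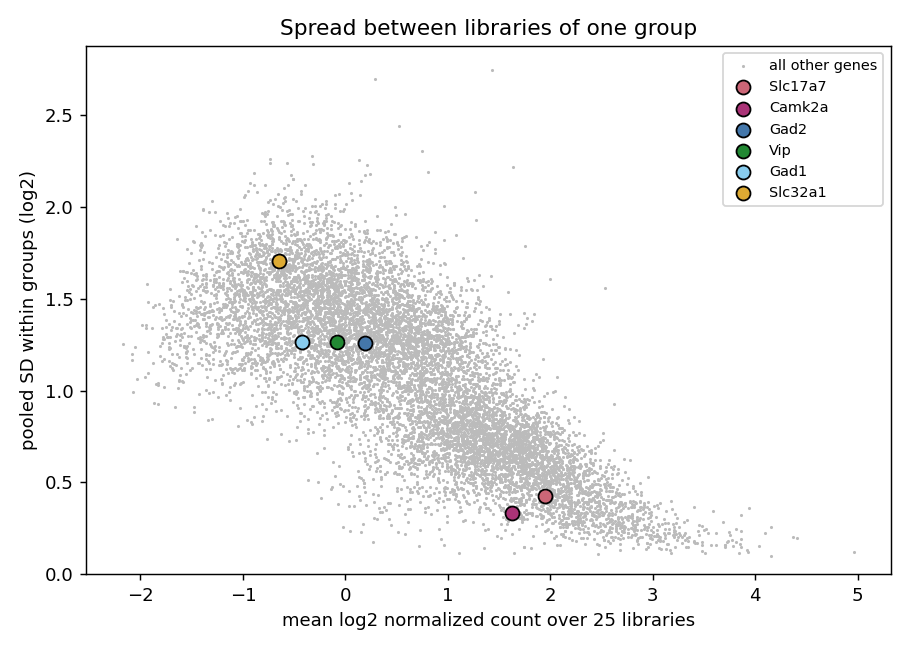
Pooled SD between libraries of a group (vertical axis) against the mean log2 normalized count over 25 libraries (horizontal axis), for all genes (grey) and 6 named genes (colored). *Slc17a7* and *Camk2a* lie at SDs of 0.42 and 0.33, while *Gad2* and *Vip*, at 1.26, lie among other genes of their level.

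The mean of *Slc17a7* and *Camk2a* minus the mean of *Gad2* and *Vip* gave 1 number per library for the balance of the classes, described here without a test. Its zero has no meaning of its own, because levels of different genes are not on a shared scale. In WT it was 1.11, 1.51, 1.87 and 2.03 in sham, 1.18, 1.19 and 1.46 at day 1, -0.31, 3.47 and 5.10 at day 3, and 2.04, 2.05 and 2.44 at day 7. In REST cKO it was 0.28, 0.95 and 1.05 in sham, 1.505 and 1.74 at day 1, 1.06, 1.09, 1.97 and 2.16 at day 3, and 1.89, 2.24 and 2.38 at day 7. The 3 WT libraries of day 3 covered the full range of the series. The highest value, 5.10, was that of replicate 5, in which 29.5% of genes had a value under -2. *Gad2* was -2.20 and *Vip* -2.90 in that library. In sham all 3 REST cKO libraries lay below all 4 WT libraries, with means of 0.76 ± 0.42 (SD, n = 3) and 1.63 ± 0.41 (SD, n = 4). The other listed genes of both classes had higher means in REST cKO sham. These were 1.19 beside 0.48 in WT sham for excitatory genes and 0.45 beside 0.0094 for inhibitory genes, so the 4-gene value does not describe the wider lists. At day 7, where the genotype differences of *Gad2* and *Vip* had opposite signs, the means were 2.18 ± 0.23 (SD, n = 3) in WT and 2.17 ± 0.25 (SD, n = 3) in REST cKO.

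The genes were then compared with each other from library to library. Over the 25 libraries, *Slc17a7* and *Camk2a* had a Pearson r of 0.53 (two-sided permutation p = 0.0064, adjusted over 6 pairs p = 0.038) and a Spearman rho of 0.41 (permutation p = 0.043, adjusted p = 0.128). Without the 2 libraries farthest from the median of *Slc17a7*, r was 0.51 with an adjusted permutation p of 0.078. Within batches 1 and 2, r was 0.75 and 0.61 (adjusted permutation p = 0.086 and 0.184, 10 libraries each). After the group means were removed r was 0.43 (adjusted permutation p = 0.185), so the relation passed 0.05 only with all libraries and their group differences included.

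*Gad2* and *Vip* had an r of 0.10 and a rho of 0.23 (permutation p = 0.647 and 0.264, adjusted p = 0.777 and 0.396). In REST cKO day 7, replicates 2 and 13 held *Gad2* at 2.62 and 1.68, among the highest values, and *Vip* at -2.71 and -2.69, among the lowest. With other genes of GABA neurons, *Gad2* had an r of 0.10 with *Gad1* and -0.14 with *Slc32a1* over the 25 libraries. The pairs across classes had r of 0.34 (*Slc17a7* and *Gad2*), 0.02 (*Slc17a7* and *Vip*), -0.18 (*Camk2a* and *Gad2*) and 0.30 (*Camk2a* and *Vip*), with adjusted permutation p-values of 0.284, 0.926, 0.577 and 0.284. Their rho values were 0.45, 0.03, -0.04 and 0.30, with adjusted permutation p-values of 0.128, 0.897, 0.897 and 0.286. Without the 2 farthest libraries these r were 0.14, -0.29, -0.21 and 0.01, and that of *Gad2* and *Vip* was 0.13. Within batch 1 they were 0.23, -0.42, 0.0039 and 0.0033, and within batch 2 they were 0.23, 0.37, -0.35 and 0.66. *Gad2* and *Vip* gave 0.044 within batch 1 and -0.061 within batch 2.

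**Figure D4:**
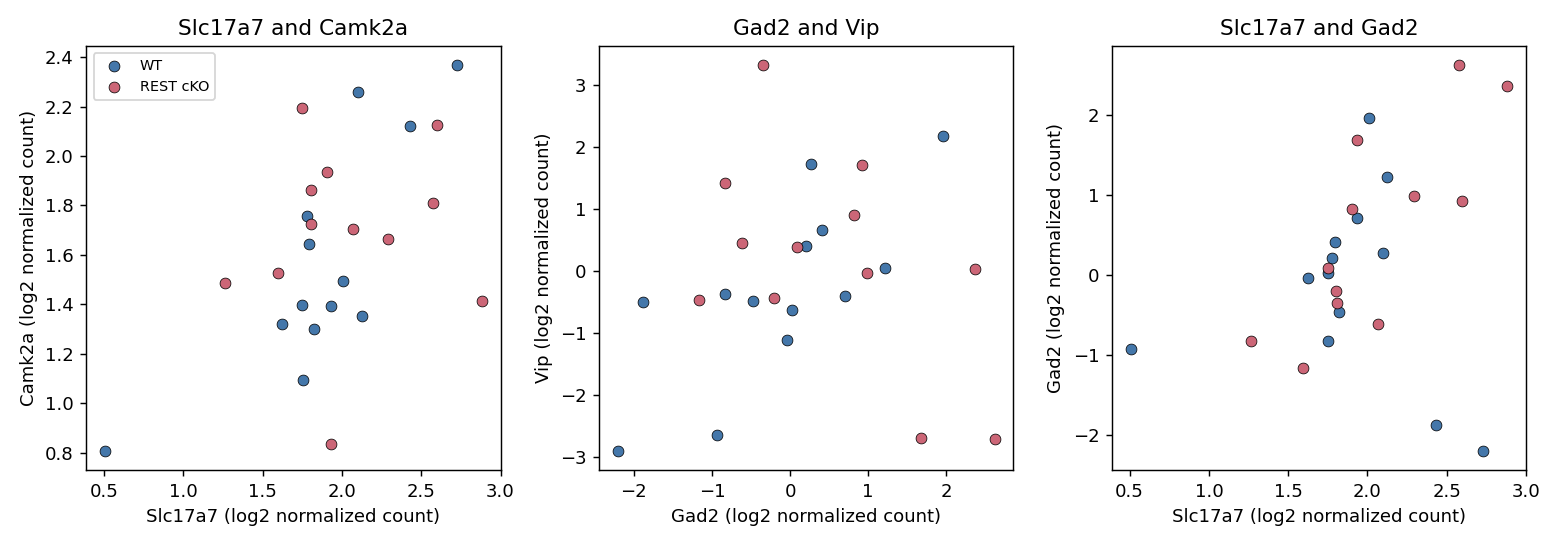
Log2 normalized counts of 3 gene pairs in the 25 libraries (points, blue WT, red REST cKO), with one gene on each axis. *Slc17a7* and *Camk2a* (left) have an r of 0.53, *Gad2* and *Vip* (middle) an r of 0.10, and in the right panel 2 WT libraries of day 3 hold high *Slc17a7* with *Gad2* at -2.20 and -1.88.

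None of the genes whose pattern over the 25 libraries was most like a member stands in the lists of class genes. The 3 highest Pearson r with *Slc17a7* were those of *Atp6v1g2* (0.78), a subunit of the vacuolar proton pump, *Elp6* (0.77) and *Hp1bp3* (0.76). Among the highest with *Camk2a* were *Atp1b2* (0.72), a sodium pump subunit, and *Tsc22d1* (0.72). Those with *Gad2* were *Ppme1* (0.80), *Tceal3* (0.79) and *Park7* (0.78), and those with *Vip* were *Apobec1* (0.79), *Rmi2* (0.76) and *Rab4b* (0.76). The best of 9930 genes will have a high r over 25 libraries without any relation between the genes. Among the listed genes of its own class, *Slc17a7* had its highest r with *Camk2a* (0.53), *Camk2a* with *Slc17a6* (0.60), *Gad2* with *Cnr1* (0.32) and *Vip* with *Lamp5* (0.67). The highest r with a listed gene of the other class was 0.53 for *Slc17a7*, 0.52 for *Camk2a*, 0.65 for *Gad2* and 0.58 for *Vip*. The median r with the listed genes of the gene's own class was 0.19, 0.11, 0.05 and 0.08 in that order, and with those of the other class it was 0.06, 0.17, 0.15 and 0.13.

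The wider lists of class genes were read beside the members. In sham, 17 of 22 measured excitatory genes had a positive REST cKO minus WT difference (median 0.82) and 16 of 20 measured inhibitory genes did (median 0.67), beside a median of 0.04 over all genes. No listed gene of either class passed an adjusted p of 0.1 by limma in any of the 14 comparisons. In sham, 1 of 22 excitatory (*Slc17a7*) and 1 of 20 inhibitory genes (*Prox1*, -3.02 ± 1.35, SE) had an unadjusted p under 0.05. That level was reached by 6.91% of all genes in sham. At day 7 the medians were 0.39 for 22 excitatory and 0.39 for 20 inhibitory genes, beside 0.23 over all genes. An unadjusted p under 0.05 was reached there by 9.95% of all genes. Among the listed genes that reached it, *Baiap2* (1.69 ± 0.64, SE) of the excitatory list was higher in REST cKO. So were *Ndnf* (3.39 ± 1.31), *Npy* (2.70 ± 1.27), *Nos1* (1.60 ± 0.73) and *Cck* (1.52 ± 0.54, SE) of the inhibitory list. At days 1 and 3 the medians were 0.18 and -0.11 for excitatory and 0.12 and 0.28 for inhibitory genes, beside 0.19 and 0.05 over all genes. The medians of both classes thus lay above the all-gene median in sham and at day 7, below it at day 1 and on opposite sides of it at day 3. For SCI minus sham at days 1, 3 and 7, the excitatory medians were 0.71, 0.29 and -0.15 in WT and 0.01, -0.29 and -0.12 in REST cKO. The inhibitory medians were 0.37, -0.18 and -0.62 in WT and 0.14, -0.80 and 0.05 in REST cKO, beside 0.12, 0.01 and -0.12 in WT and 0.29, 0.03 and 0.07 in REST cKO over all genes.

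Of the other class genes named here, 7 of 9 had positive differences in sham, like the members, and *Tbr1* and *Bcl11b* had negative ones. In sham, REST cKO minus WT was 2.87 ± 1.47 for *Slc17a6*, a second vesicular glutamate transporter, and 0.82 ± 0.70 (SE) for *Neurod6*. It was -0.12 ± 1.26 for *Tbr1*, -1.19 ± 0.92 for *Bcl11b*, a transcription factor of subcerebral projection neurons, and 0.79 ± 0.75 (SE) for *Camk2b*. *Gad1* differed by 0.98 ± 1.25, *Slc32a1* by 0.92 ± 1.52, *Npy* by 2.39 ± 1.37 and *Cck* by 0.29 ± 0.58 (SE). None of these 9 differences had an unadjusted p under 0.05. Of 9 genes for CaMKII subunits and partners, *Camk2a* among them, 7 were positive in sham, with a median of 0.53. Of 11 measured genes for glutamate and GABA handling, *Slc17a7* and *Gad2* among them, 11 were positive in sham, with a median of 0.92. The 2 with an unadjusted p under 0.05, beside 6.91% of all genes, were *Slc17a7* and *Slc6a11*. *Slc6a11*, a GABA transporter found mainly in astrocytes, differed by 1.86 ± 0.84 (SE). *Sst*, *Pvalb*, *Adcyap1* and *Vipr1* were not analyzed here.

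General neuronal and glial genes were compared between the groups in the same way. In sham, 16 of 18 pan-neuronal genes had a positive REST cKO minus WT difference, with a median of 1.10, and 7 of 18 had an unadjusted p under 0.05 by limma. An unadjusted p under 0.05 was reached by 6.91% of all genes in that comparison. The mean pan-neuronal level per library was 0.05 to 1.13 in WT sham and 1.05 to 2.13 in REST cKO sham. All 12 microglial genes had a negative difference in sham (median -0.36), 4 of 12 at an unadjusted p under 0.05, and their log2 summed level was 6.80 to 7.01 in WT sham and 6.46 to 6.78 in REST cKO sham. All 5 measured astrocyte genes had a positive difference in sham (median 0.92), 4 of 5 at an unadjusted p under 0.05, whereas *Gfap*, *Aqp4* and *Aldh1l1* were not analyzed here. Of oligodendrocyte genes 3 of 9 were positive (median -0.10), and of endothelial genes 6 of 6 (median 0.73). At day 7 the pan-neuronal median was 0.79 and the microglial median was -0.11. The group mean of the pan-neuronal level was lower in REST cKO than in WT at day 1 (1.27 and 1.55) and at day 3 (1.08 and 1.23). The part of these other cells and of the overall neuronal level in the differences of the 4 genes was not tested.

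**Figure D5:**
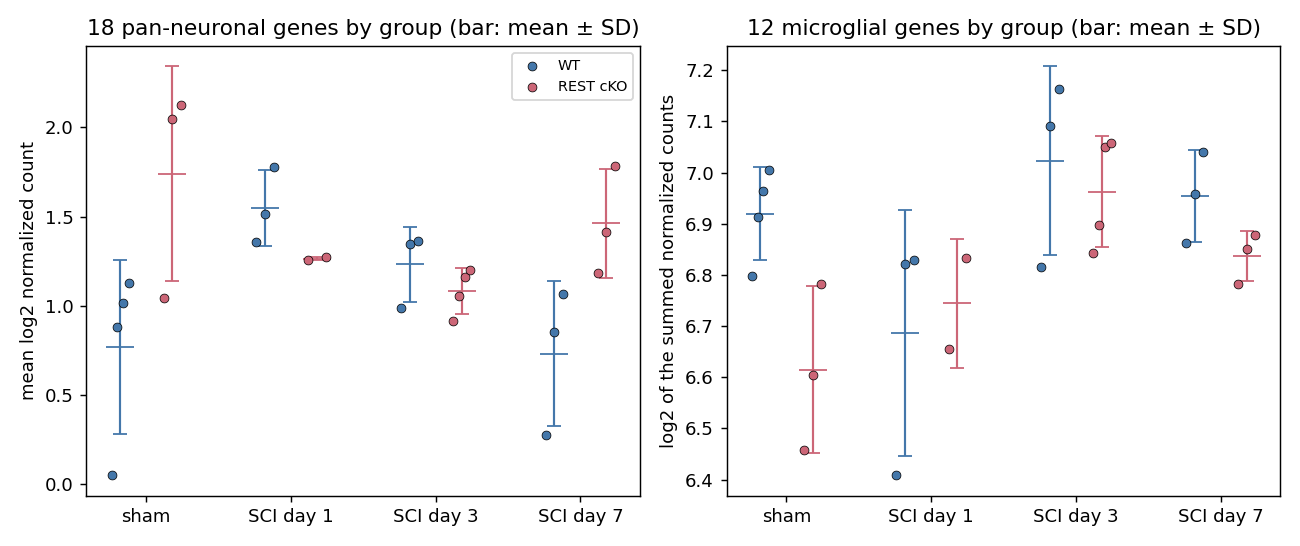
Mean log2 normalized count of 18 pan-neuronal genes (left) and log2 of the summed normalized counts of 12 microglial genes (right) in each library (points) by condition and genotype (blue WT, red REST cKO), with mean and SD. In sham, the pan-neuronal mean is 0.05 to 1.13 in WT and 1.05 to 2.13 in REST cKO, and the microglial sum is 6.80 to 7.01 in WT and 6.46 to 6.78 in REST cKO.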

How the data were processed

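RNA from about 1000 FACS-sorted cortical cells per library was sequenced with a 3′ end tag kit. The authors deposited 1 table of log2 normalized counts. The authors made these by alignment to mm10 with STAR, quantification with Salmon, scaling with DESeq2, removal of batch effects with RUV, removal of genes without counts in most samples, and regression on sequencing components. The base of the logarithm was taken from the study's description of plotted values, since the table does not name it. The deposited log2 fold changes, p-values and adjusted p-values of the authors' own comparisons were not used. Of 9955 rows, 24 without a symbol were left out.

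Groups, batch, sex and the components came from the labels. Replicates carry sample numbers that are unique over the series and pair no libraries. The study counts mice as replicates, but the labels tie no library to a mouse, so p-values measure the spread between these libraries. All 25 libraries were fitted with limma 3.58.1 (R 4.3.3), with 8 group means and 2 components, a mean-variance trend, Benjamini-Hochberg adjustment over 9931 genes and a threshold of 0.1. The fit was checked on simulated data. Correlations used 100000 permutations (scipy). Raw counts were not used, so precision comes from replicates only. The members and gene lists were chosen with earlier results of these data known. Genes named beside the members were all listed genes past the threshold, a set of class markers, and the 3 genes most like each member. The RE1 arrangement in promoters, the listed genes at an unadjusted p under 0.05 and *Slc6a11* and *Adcyap1r1* were named after their values were seen. Some genes that this rule names are not reported here. Alternatives are given in the closing section.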

Additional observations from a re-analysis of the deposited data

Results flagged for a closer look

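Of 10 groups of 4 libraries tested over the 4 genes and the excitatory minus inhibitory value, 1 held a library far from the others. *Camk2a* in WT sham was 1.09 in replicate 3, beside 1.35 to 1.40 in the other libraries of that group. About 1 in 20 such groups is expected to be picked out by chance. *Gad2* was also lowest in that library within WT sham, at -0.83, and its pan-neuronal mean was 0.05, the lowest of all 25 libraries.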

How the results depend on the processing

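No member passed the adjusted p of 0.1 by limma under any alternative, the smallest adjusted p being 0.254, so the alternatives bear on sizes and signs, and the cause of each change was not tested. No paired analysis was possible because the replicate numbers are not shared between groups. Centering each library on its pan-neuronal genes turned the sign of 21 of 56 member differences. These became, for REST cKO minus WT, -0.27 (*Slc17a7*), -0.57 (*Camk2a*) and -0.51 (*Gad2*) in sham, -0.12 (*Slc17a7*) and -0.52 (*Camk2a*) at day 7, and -0.080 (*Slc17a7*) and -0.20 (*Camk2a*) on average. For SCI minus sham they became -0.27 (*Camk2a*) and -0.68 (*Gad2*) in WT at day 1, -0.49 (*Vip*) in WT at day 3, 0.0098 (*Slc17a7*) and 0.084 (*Gad2*) in REST cKO at day 1, and 0.68 (*Camk2a*) in REST cKO at day 3. For the interaction they became 0.94 (*Slc17a7*), 0.91 (*Camk2a*) and 0.77 (*Gad2*) at day 1, 0.49 (*Camk2a*), 1.33 (*Gad2*) and 0.015 (*Vip*) at day 3, and 0.15 (*Slc17a7*) and 0.043 (*Camk2a*) at day 7.

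Other fits turned few signs. With batch as a term, *Gad2* in REST cKO minus WT at day 1 was -0.30 and *Vip* in WT at day 3 was -0.13. With sex as a term, *Gad2* was -0.047 at day 1 between genotypes and 0.41 in the day 3 interaction. After quantile normalization *Gad2* was -0.39 and -0.00249 between genotypes at days 1 and 3, -0.013 in WT at day 1 and -0.15 in REST cKO at day 7. With library weights *Gad2* was -0.059 in WT at day 1 and -0.48 in REST cKO at day 7. Without the components, on which the deposited values had already been regressed, *Slc17a7* was 0.0012 in WT at day 1 and 0.18 in the day 7 interaction. *Vip* was then -0.0659 in WT at day 3. Without the 2 libraries with the most values under -2, an alternative chosen after seeing the data, *Gad2* and *Vip* between genotypes at day 3 were -0.14 and -0.19. A stricter adjusted p of 0.05, no trend and a minimum mean value of 0 turned no sign.

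Leaving out each library in turn reversed 24 of 512 values. Between genotypes the ranges were -0.19 to 0.76 (*Camk2a*), -0.30 to 0.48 (*Gad2*) and -0.91 to 0.26 (*Vip*) at day 1, and -0.34 to 1.73 (*Gad2*) and -0.28 to 2.00 (*Vip*) at day 3. In WT they were -0.35 to 0.033 (*Slc17a7*) and -0.21 to 0.63 (*Gad2*) at day 1 and -0.999 to 1.21 (*Vip*) at day 3. In REST cKO they were -0.33 to 0.62 (*Camk2a*) and -1.11 to 0.32 (*Gad2*) at day 1, and -0.55 to 1.05 (*Gad2*) at day 7. For the interaction they were -1.30 to 0.12 and -1.29 to 0.86 (*Gad2*, days 1 and 3) and -0.55 to 0.017 (*Camk2a*, day 7). Without a change of sign, the average over conditions ranged from 0.19 to 0.40 (*Slc17a7*), 0.093 to 0.33 (*Camk2a*), 0.48 to 1.13 (*Gad2*) and 0.13 to 0.89 (*Vip*). Groups of 2 were left with 1 library, which was assumed to vary like the others.

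The correlation of *Slc17a7* and *Camk2a* no longer passed 0.05 from group residuals (0.43), after quantile normalization (0.43) or centering (0.38), within batches 1 and 2 (0.75 and 0.61), without the 2 farthest libraries (0.51) or without the 2 libraries with the most values under -2 (0.46). Without those last 2, *Slc17a7* with *Gad2* (0.55) and *Camk2a* with *Vip* (0.51) passed it, and after centering *Camk2a* with *Gad2* did (-0.53). Signs turned for *Slc17a7* with *Gad2* after centering (-0.0035), for *Slc17a7* with *Vip* from residuals (-0.35), after centering (-0.034), in batch 1 (-0.42) and without the 2 farthest (-0.29), for *Camk2a* with *Gad2* in batch 1 (0.0039), for *Camk2a* with *Vip* from residuals (-0.075), and for *Gad2* with *Vip* in batch 2 (-0.061) and without the 2 libraries with the most low values (-0.080).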
